A study of Homo sapiens with 9 samples.

Results

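The ERBB receptor family, part of its ligands and the genes next to ERBB2 on chromosome 17 were followed in SKOV3 cells, an established human ovarian tumour line known for extra copies of ERBB2. The 10 genes were named by symbol: the receptors EGFR, ERBB2, ERBB3 and ERBB4, the ligands AREG, EREG and HBEGF, and the ERBB2 neighbours GRB7, STARD3 and PGAP3. Of these, 8 were measured, each on 1 probe set annotated to that gene alone, among 14215 genes with such a probe set. GRB7 and AREG stood on no probe set of the annotation and were not analysed here. Total RNA from 9 flasks was measured on 9 arrays, 3 in each of 3 groups kept for 3 days: untreated cells, cells with 50 µM peracetylated GlcNAc (Ac-GlcNAc) and cells with 50 µM peracetylated 4-deoxy-GlcNAc (Ac-4-deoxy-GlcNAc), which lacks the oxygen at the carbon its name gives. The flasks held 1 cell line without another genotype, agent or feeder cell named in the labels.

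ERBB receptors are membrane tyrosine kinases that bind growth factors of the EGF family and act as pairs. ERBB2 binds no known ligand and serves as the preferred partner of the others, while ERBB3 has little kinase activity of its own and passes signals mainly to phosphatidylinositol 3-kinase (PI3K). Ligands are made as membrane precursors, are cut loose by metalloproteases, and drive the RAS, ERK and PI3K pathways. In ovarian and breast tumours a stretch of the long arm of chromosome 17 around ERBB2 can be multiplied, which carries neighbouring genes along.

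Values are log2 probe set levels made by the authors. They were compared with limma across all 17859 probe sets, and a gene is called when its Benjamini-Hochberg adjusted p is under 0.05. Array medians lay between 6.58 and 6.65. The SD over probe sets was 2.08, 1.92 and 2.08 on untreated replicates 1 to 3 and 2.15, 2.14 and 2.18 with Ac-GlcNAc. With Ac-4-deoxy-GlcNAc it was 2.07, 2.11 and 2.17. All 3 Ac-GlcNAc arrays lay above the 3 untreated ones, so array SD and group were not independent. The 6 epithelial markers EPCAM, CDH1, KRT7, KRT8, KRT18 and KRT19 had a median rank at the 84.5th percentile of all probe sets, and the 4 measured ovarian carcinoma markers at the 73.9th. The 4 endothelial and 3 measured leukocyte markers had theirs at the 30.9th and 21st percentiles. Fibroblast genes had a median rank at the 44.1th percentile. They averaged 6.38 to 6.57 on untreated arrays, 6.12 to 6.20 with Ac-GlcNAc and 6.0 on each Ac-4-deoxy-GlcNAc array. Of the 6 measured, 3 were called lower than untreated with the 4-deoxy compound and 0 higher, where 11.0% of all probe sets were called in either direction. The endothelial marker PECAM1 was called higher in that comparison (0.41, adjusted p = 0.0178), 1 of 4. The 4 ran from -0.09 to 0.41 there, with a median of 0.07. Between the compounds KDR was called higher (0.36, adjusted p = 0.0497), 1 of 4 endothelial markers. In the same comparison 1 of 6 fibroblast genes was called lower, where 2.38% of all probe sets were called. No detection values were at hand to set a low marker against background, and the part of these shifts in the results was not tested.

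Both members with the closest neighbourhood in the genome are shown first, because the levels of ERBB2 and PGAP3 are reported side by side. Their RefSeq starts lie 37 bases apart on opposite strands, so the 136 bases at chr17:39688008-39688143 (GRCh38.p14, + strand of ERBB2) belong to the promoter windows of both genes. A window runs from 250 bases before to 50 after a start. EREG is shown because it is the ligand that was called, with its window at chr4:74364895-74365194 (GRCh38.p14, + strand). Windows of RefSeq were found for 8 of the 10 genes, and ERBB3 had none. Capitals mark matches on either strand to CCGGAAGT, a core of sites for ETS factors, and to TATAAA, the core of a TATA box.

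ERBB2 and PGAP3: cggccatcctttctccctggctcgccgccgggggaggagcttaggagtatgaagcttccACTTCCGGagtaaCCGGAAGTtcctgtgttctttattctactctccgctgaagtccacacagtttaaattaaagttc

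EREG: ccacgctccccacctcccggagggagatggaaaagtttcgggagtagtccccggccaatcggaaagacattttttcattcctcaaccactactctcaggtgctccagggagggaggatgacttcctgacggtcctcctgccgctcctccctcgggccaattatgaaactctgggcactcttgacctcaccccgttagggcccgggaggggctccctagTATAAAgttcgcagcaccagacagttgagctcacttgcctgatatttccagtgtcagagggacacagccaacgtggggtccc

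The stretch of ERBB2 and PGAP3 holds 2 matches to CCGGAAGT, on opposite strands, and 0 to TATAAA. CCGGAAGT occurs in 4.14% of all 35116 windows of 300 bases. The EREG window holds 1 match to TATAAA, a motif found in 11.5% of windows, and 0 to CCGGAAGT. The GC box core GGGCGG, found in 45% of windows, was absent from the EREG window and from the shared stretch, and 5 matches stood in the HBEGF window. These matches are a description of the letters only. Whether the transcripts measured on the arrays begin at these starts was not tested.

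Among the receptors ERBB3 was the one that was called. It rose 1.34-fold with Ac-4-deoxy-GlcNAc against untreated cells and was 1.45-fold higher than with Ac-GlcNAc at the same dose and time. The log2 values of ERBB3 were 4.98, 4.89 and 4.82 on the untreated arrays, 4.77, 4.92 and 4.67 with Ac-GlcNAc, and 5.28, 5.35 and 5.33 with Ac-4-deoxy-GlcNAc. All 3 arrays of the 4-deoxy compound lay above the other 6, which overlapped each other. The mean was 4.90 ± 0.08 (SD, n = 3) untreated, 4.79 ± 0.12 with Ac-GlcNAc and 5.32 ± 0.04 with Ac-4-deoxy-GlcNAc. The log2 difference from untreated was 0.42 (SE 0.10, 95% interval 0.22 to 0.63, limma adjusted p = 0.016), and that from Ac-GlcNAc was 0.53 (SE 0.10, 95% interval 0.33 to 0.74, adjusted p = 0.0108). Ac-GlcNAc and untreated cells differed by -0.11 (95% interval -0.32 to 0.09, adjusted p = 0.462), which was not called and turned to 0.05 after cyclic loess and 0.10 after quantile normalization. In the order of levels, Ac-4-deoxy-GlcNAc therefore came first, and the places of the other groups did not differ beyond their spread. The probe set was low, at the 27.2th percentile of all mean levels, and no detection values were at hand to set it against background. A fit with array SD as covariate left the difference from untreated at 0.43 with an adjusted p = 0.0513. Without Ac-4-deoxy-GlcNAc replicate 3 that difference was 0.42 with an adjusted p = 0.0614. The difference from Ac-GlcNAc was 0.52 without Ac-GlcNAc replicate 1 (adjusted p = 0.0563) and 0.48 without Ac-GlcNAc replicate 3 (adjusted p = 0.0588). In RNA of a whole culture, more cells with the transcript and more transcript per cell cannot be told apart.

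ERBB2 was measured at the top of the array in every group and was not called in any comparison. Its log2 values were 12.28, 12.20 and 12.18 untreated, 12.30, 12.30 and 12.27 with Ac-GlcNAc, and 12.22, 12.18 and 12.26 with Ac-4-deoxy-GlcNAc. All 9 lay between 12.18 and 12.30, and the mean was at the 99.8th percentile of mean levels. The 3 arrays with the 4-deoxy compound were all below the 3 with Ac-GlcNAc, by a mean of 0.07 (log2 difference -0.07, 95% interval -0.25 to 0.12, adjusted p = 0.865). The fold against untreated cells had a 95% interval of 0.924 to 1.19 with Ac-GlcNAc and 0.881 to 1.14 with Ac-4-deoxy-GlcNAc.

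EGFR, the founding receptor of the family, was also not called. It read 9.57, 9.60 and 9.75 untreated, 9.59, 9.62 and 9.71 with Ac-GlcNAc, and 9.74, 9.77 and 9.65 with Ac-4-deoxy-GlcNAc. The groups overlapped in each pair. Its difference from untreated was 0.00 with Ac-GlcNAc (95% interval -0.19 to 0.20, adjusted p = 0.978) and 0.08 with Ac-4-deoxy-GlcNAc (-0.12 to 0.28, adjusted p = 0.563). ERBB4, a receptor of neuregulins, read 7.41, 7.32 and 7.74 untreated, 7.31, 7.42 and 7.57 with Ac-GlcNAc, and 7.65, 7.53 and 7.33 with Ac-4-deoxy-GlcNAc. Its spread within groups (SD 0.13 to 0.22) was larger than any difference between group means, which ran from -0.06 to 0.07.

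**Figure D1:**
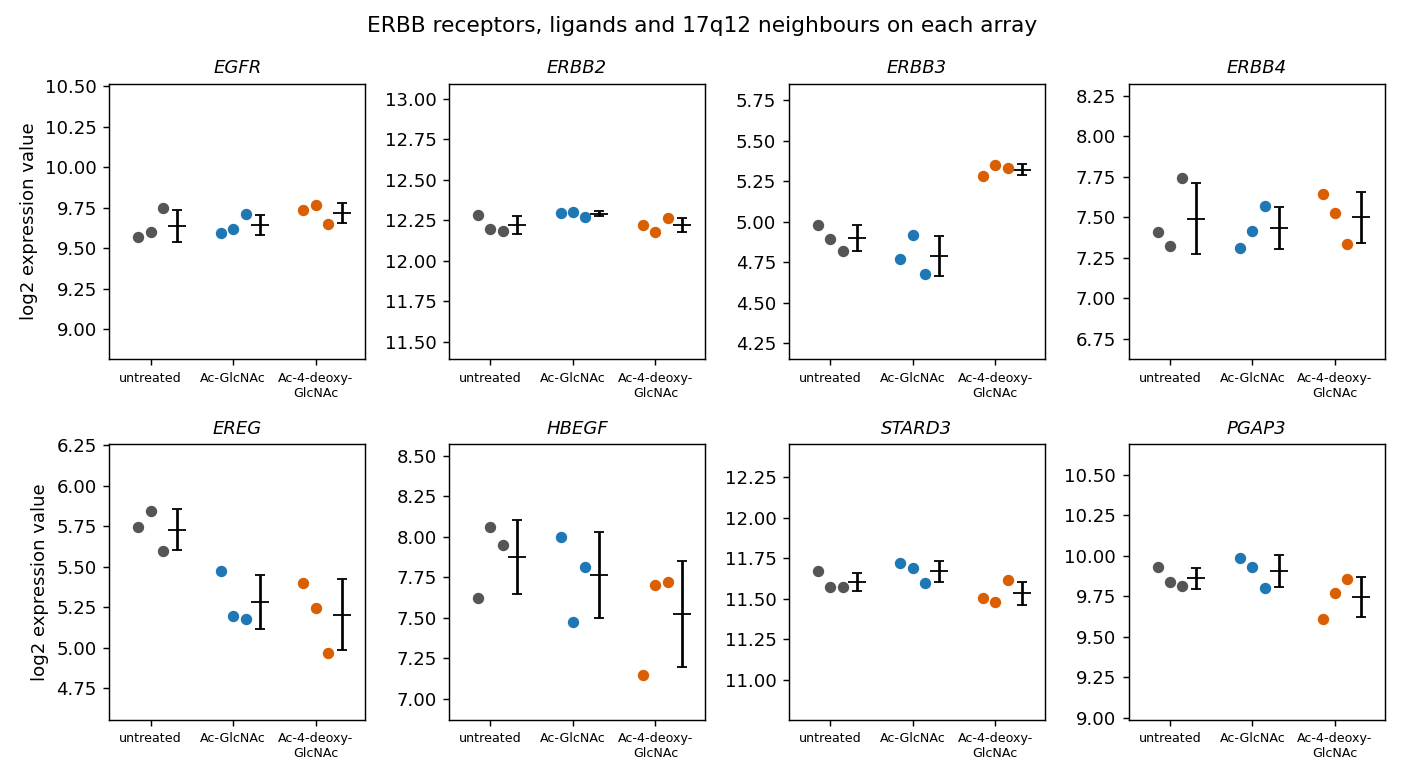
Each point is the log2 expression value of 1 array, and the bar beside it is the group mean with the SD (n = 3), for 8 genes with vertical axes of equal length around each gene's own mean. The 3 ERBB3 points with Ac-4-deoxy-GlcNAc (5.28 to 5.35) lie above the other 6, the 3 untreated EREG points (5.60 to 5.85) lie above the other 6, and the remaining genes do not separate one group from both others.

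EREG, the ligand epiregulin, fell with Ac-4-deoxy-GlcNAc by 0.53 on the log2 scale against untreated cells (SE 0.13, 95% interval -0.80 to -0.25, adjusted p = 0.0215). Its values were 5.74, 5.85 and 5.60 on untreated arrays, 5.47, 5.20 and 5.18 with Ac-GlcNAc, and 5.40, 5.24 and 4.97 with Ac-4-deoxy-GlcNAc. All 6 treated arrays were below the 3 untreated ones, and the treated groups overlapped. With Ac-GlcNAc the difference of -0.45 (SE 0.13, 95% interval -0.72 to -0.18) had an unadjusted p = 0.00342 in the same limma fit and an adjusted p = 0.0891, which was not called. That difference ran from -0.47 to -0.20 over 8 other settings and from -0.54 to -0.39 in 6 fits with 1 array left out. It was called in 0 of them. Both comparisons share the untreated arrays. The compounds differed from each other by -0.08 (95% interval -0.35 to 0.19, adjusted p = 0.909). The call depended on single arrays: the difference was -0.47 (adjusted p = 0.0635) without untreated replicate 2, the array with the narrow range, and -0.41 (adjusted p = 0.102) without Ac-4-deoxy-GlcNAc replicate 3. A fit with array SD as covariate gave -0.35 (adjusted p = 0.174), while cyclic loess and quantile normalization gave -0.42 and -0.44, both called. EREG sat at the 34.3th percentile of mean levels.

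HBEGF, the heparin-binding ligand of EGFR and ERBB4, was not called. It read 7.62, 8.06 and 7.95 untreated, 8.0, 7.47 and 7.81 with Ac-GlcNAc, and 7.14, 7.70 and 7.72 with Ac-4-deoxy-GlcNAc. Its SD within groups of 0.23 to 0.33 exceeded that of the other 7 genes in each group, and the groups overlapped in each pair. The difference from untreated was -0.11 (95% interval -0.48 to 0.26, adjusted p = 0.691) with Ac-GlcNAc and -0.35 (-0.72 to 0.02, adjusted p = 0.175) with Ac-4-deoxy-GlcNAc.

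In total, 2 of the 8 measured genes differed among the 3 groups by the moderated F test, ERBB3 (adjusted p = 0.0103) and EREG (adjusted p = 0.0366), where 8.36% of all probe sets were called. Against untreated, Ac-4-deoxy-GlcNAc gave those 2 of 8 as called, 1 higher and 1 lower, beside 11.0% of all probe sets. With Ac-GlcNAc 0 of 8 were called by limma, beside 0.442% of all. EREG alone, 1 of 8, had an unadjusted p under 0.05, beside 4719 of all 17859 probe sets. Between the compounds 1 of 8 was called, ERBB3, beside 2.38%. Arrays of the groups did not overlap for 2 of 8 genes with Ac-4-deoxy-GlcNAc and 1 of 8 with Ac-GlcNAc against untreated, where 32.1% and 32.3% of all probe sets did so. Between the compounds that held for ERBB2 and ERBB3, 2 of 8, beside 21.2%. The counts of 8 genes were not tested against these background shares. The median difference of the 8 genes was -0.03 with either compound against untreated and -0.07 between the compounds, where all probe sets had medians of -0.02, -0.05 and 0.00.

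**Figure D2:**
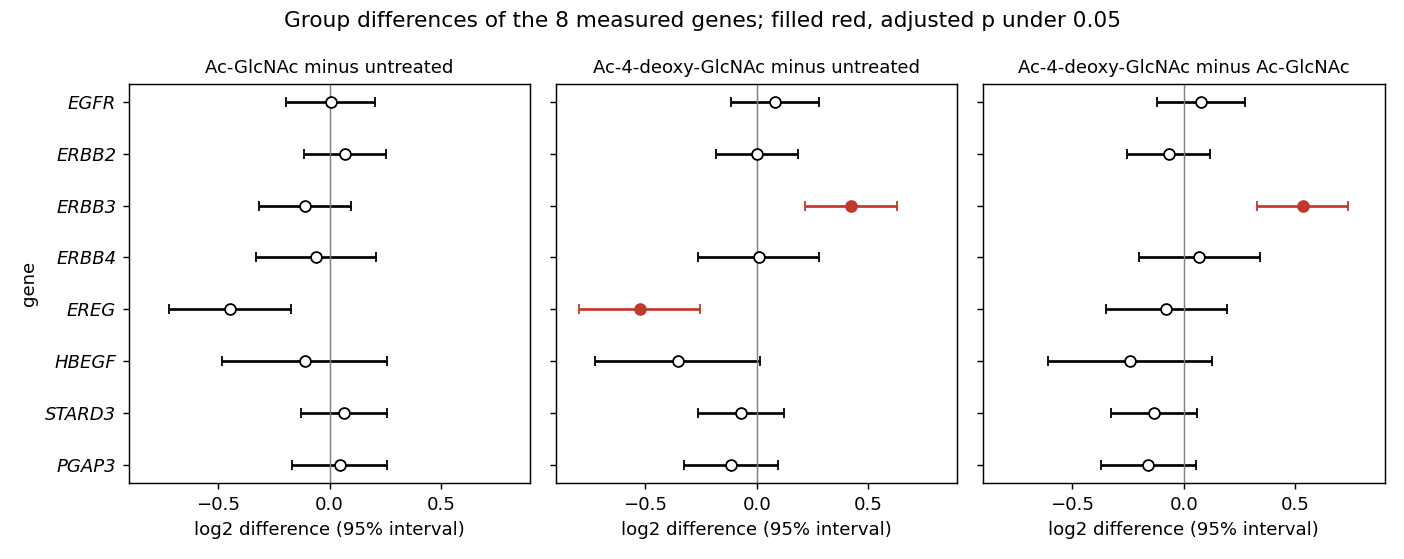
Log2 differences between group means of the 8 measured genes (points) with 95% intervals from limma (bars), in 3 panels for the 3 comparisons. Filled red points are called; ERBB3 is called at 0.42 and 0.53 in the panels of the 4-deoxy compound, EREG is called at -0.53 against untreated, and all other intervals except that of EREG with Ac-GlcNAc include 0.

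STARD3 and PGAP3 ranked high among all probe sets, as ERBB2 did, and were not called. TCAP and PNMT, which lie between them, ranked at the 43.4th and 36.3th percentiles, and the more distant LASP1 and TOP2A at the 97.8th. Probe sets differ in how they hybridise, so ranks of different genes are a description and not amounts of RNA. STARD3, a cholesterol-binding protein of late endosomes, read 11.67, 11.57 and 11.57 untreated, 11.72, 11.69 and 11.60 with Ac-GlcNAc, and 11.51, 11.48 and 11.61 with Ac-4-deoxy-GlcNAc, at the 99.2th percentile. Its difference between the compounds was -0.13 (95% interval -0.33 to 0.06, adjusted p = 0.616). PGAP3, which remodels the lipid anchor of GPI-linked proteins, read 9.93, 9.84 and 9.82 untreated, 9.99, 9.93 and 9.80 with Ac-GlcNAc, and 9.61, 9.77 and 9.86 with Ac-4-deoxy-GlcNAc, at the 91.5th percentile. Its difference between the compounds was -0.16 (-0.37 to 0.05, adjusted p = 0.568). The groups of both genes overlapped in each pair. ERBB2, STARD3 and PGAP3 had their highest group mean with Ac-GlcNAc, by 0.07, 0.06 and 0.05 over untreated, differences within the spread of the arrays that turned to -0.04, -0.05 and -0.07 after cyclic loess. With Ac-4-deoxy-GlcNAc the differences from untreated were 0.00 for ERBB2 and -0.11 for PGAP3, neither of them called.

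Of 34 further genes listed for the region around ERBB2, 26 were measured. From untreated to Ac-4-deoxy-GlcNAc, 3 rose and 2 fell, a share of 19.2% beside the 11.0% of all probe sets, with a median difference of -0.01. TNS4, a focal adhesion protein of the tensin family, fell by 0.48 (SE 0.08, adjusted p = 0.00503), from 5.43, 5.33 and 5.40 to 4.89, 4.92 and 4.92. It was also lower than with Ac-GlcNAc (-0.49, SE 0.08, adjusted p = 0.00943), where the arrays read 5.39, 5.41 and 5.39. Its call against untreated held in all 6 fits that dropped 1 array, and that against Ac-GlcNAc in 4, with -0.49 (adjusted p = 0.0522) without Ac-GlcNAc replicate 1 and -0.48 (adjusted p = 0.0529) without replicate 2. CDK12, a kinase of transcription elongation, rose by 0.44 (adjusted p = 0.023) and GSDMB, a gasdermin, by 0.50 (adjusted p = 0.0238), while PPP1R1B, a phosphatase inhibitor, fell by 0.36 (adjusted p = 0.0478). FBXL20, an F-box protein, rose by 0.33 (adjusted p = 0.0493) and was named after its values were seen. The last 4 calls rested on single arrays (4-deoxy stands for Ac-4-deoxy-GlcNAc). That of CDK12 was lost without untreated replicate 2 or 4-deoxy replicate 1 or 3, with differences of 0.32 to 0.45 and adjusted p of 0.0531 to 0.0987. That of GSDMB was lost without untreated replicate 2 or 3 or 4-deoxy replicate 1 or 3 (0.40 to 0.47, adjusted p of 0.0632 to 0.107). PPP1R1B kept its call only without untreated replicate 2 (elsewhere -0.39 to -0.29, adjusted p of 0.0899 to 0.114), and FBXL20 only without untreated replicate 1 (elsewhere 0.26 to 0.37, adjusted p of 0.063 to 0.151). With array SD as covariate CDK12 was 0.27 (adjusted p = 0.15), GSDMB 0.36 (0.183), PPP1R1B -0.45 (0.0596) and FBXL20 0.25 (0.241). A fit of only the 6 arrays compared also called 0 of these 4 genes (adjusted p of 0.0612 to 0.0922), and FBXL20 was lost with cyclic loess, quantile normalization and array weights (adjusted p of 0.0561 to 0.0646). The genes directly beside ERBB2 and PGAP3 were not called. MIEN1, the next gene on the far side of ERBB2, differed by -0.03 (adjusted p = 0.889), and PNMT and TCAP, between STARD3 and PGAP3, by -0.24 and -0.17 (adjusted p = 0.18 and 0.376). With Ac-GlcNAc 0 of 26 were called in the limma fit, beside 0.442% of all probe sets. The smallest p-values were those of TOP2A (0.33, adjusted p = 0.0971) and GSDMB (0.34, adjusted p = 0.126). Both were called without untreated replicate 1 (0.40 and 0.48, adjusted p = 0.0469 and 0.037) and with array weights (0.27 and 0.34, adjusted p = 0.0429 and 0.0441), and were 0.13 each, not called, with array SD as covariate. Between the compounds TNS4 alone was called, 1 of 26, beside 2.38% of all probe sets.

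**Figure D3:**
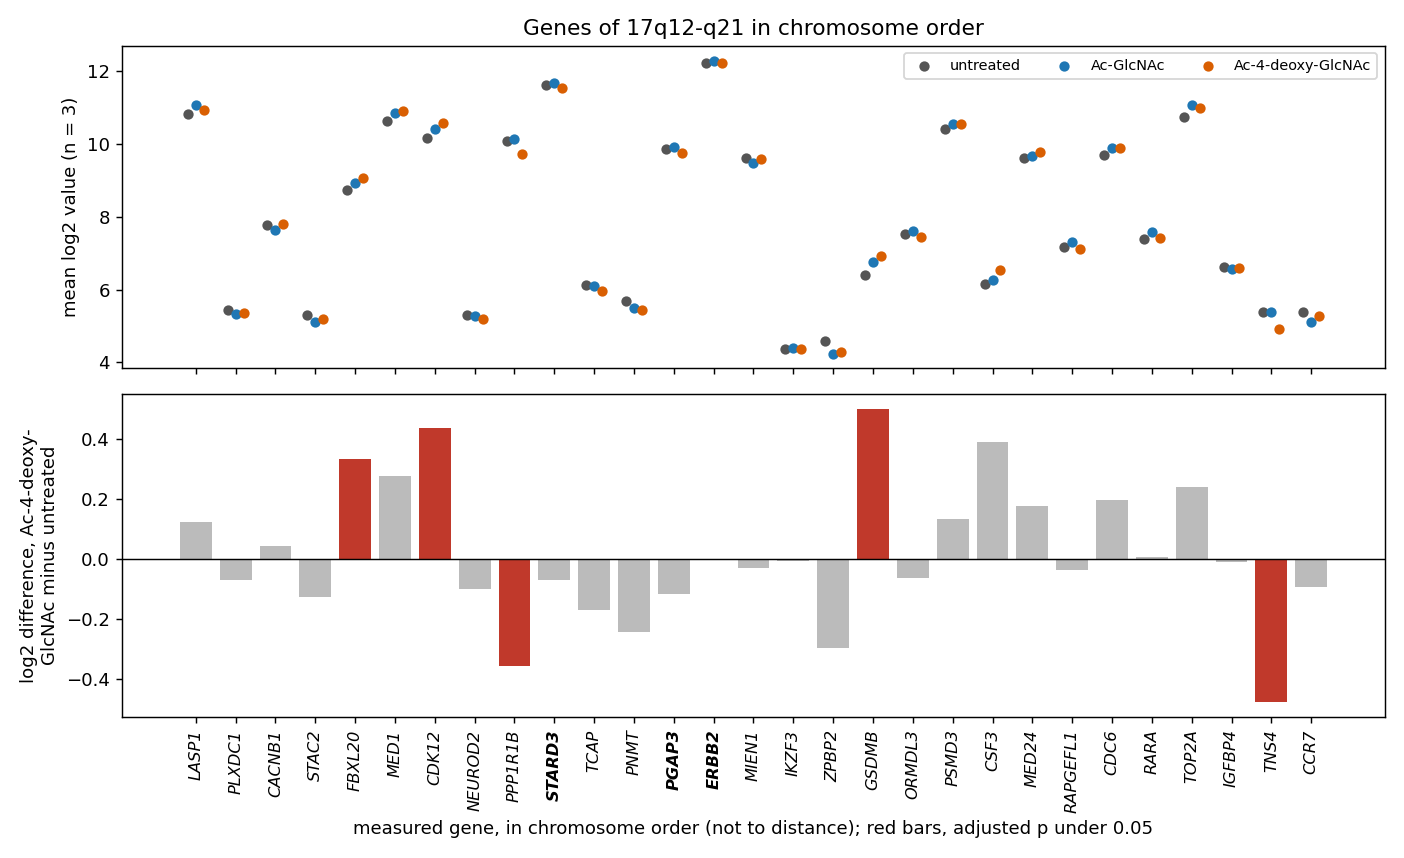
Measured genes around ERBB2 in their order on the chromosome, not to distance, with group means of the log2 value above (n = 3 arrays each) and the log2 difference of Ac-4-deoxy-GlcNAc minus untreated below. The 3 genes in bold belong to the 8 described; ERBB2 and STARD3 have the highest means of the region (12.24 and 11.60 over 9 arrays), and the 5 red bars, from -0.48 for TNS4 to 0.50 for GSDMB, are called.

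The rest of the ERBB pathway was read from lists of genes by role. Of 8 other ligands, 7 were measured and 0 were called in any comparison. Of all probe sets, 11.0% were called with Ac-4-deoxy-GlcNAc and 0.442% with Ac-GlcNAc against untreated, and 2.38% between the compounds. The median difference of the 7 was -0.26 with Ac-4-deoxy-GlcNAc and -0.11 with Ac-GlcNAc against untreated, and 0.02 between the compounds. The smallest p-values with Ac-4-deoxy-GlcNAc were those of EPGN, epigen (-0.30, adjusted p = 0.0553), and TGFA, transforming growth factor alpha (-0.34, adjusted p = 0.092). Without untreated replicate 1 both were called (-0.33 and -0.44, adjusted p = 0.0454 and 0.0386), and EPGN was -0.096 after cyclic loess. With Ac-GlcNAc they were those of EPGN (-0.33, adjusted p = 0.0895) and EGF (-0.32, adjusted p = 0.128), low probe sets at the 5.12th and 14.1th percentiles. EPGN was called with array weights (-0.27, adjusted p = 0.0346) but was -0.077 after cyclic loess, and EGF was -0.022 with array SD as covariate. TGFA (-0.41, adjusted p = 0.118) and BTC, betacellulin (-0.25, adjusted p = 0.491), had the smallest between the compounds. NRG1, a neuregulin and ligand of ERBB3 and ERBB4, differed by 0.05 with Ac-4-deoxy-GlcNAc (adjusted p = 0.759). Of 7 genes for ligand release, 5 were measured and 0 were called in any comparison, beside the same shares of all probe sets. RHBDL2, a rhomboid protease, had the smallest p in each comparison (-0.31, -0.24 and 0.07; adjusted p = 0.113, 0.149 and 0.894; with Ac-GlcNAc -0.40 and just called without untreated replicate 1), followed by ADAM12, a metalloprotease (0.24, 0.20 and -0.04; adjusted p = 0.157, 0.184 and 0.957).

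Of 15 measured genes that restrain, stabilise or degrade the receptors, 2 rose and 1 fell from untreated with Ac-4-deoxy-GlcNAc, 20% beside 11.0% of all probe sets, with a median difference of 0.05. CBL, a ubiquitin ligase that marks EGFR for degradation, rose by 0.57 (SE 0.11, adjusted p = 0.0094), from 9.94, 9.70 and 9.81 to 10.59, 10.19 and 10.37. Its relative CBLB fell by 0.44 (SE 0.10, adjusted p = 0.0178), from 8.97, 9.01 and 9.15 to 8.49, 8.73 and 8.58. For both genes the untreated and Ac-4-deoxy-GlcNAc arrays did not overlap, as was so for 5 of the 15 and for 32.1% of all probe sets. The 2 ligases moved in opposite directions. USP8, a deubiquitinase that acts on endosomes, rose by 0.48 (adjusted p = 0.0449). CBL stayed called in all 6 fits with 1 array left out, but not with array SD as covariate (0.54, adjusted p = 0.0596). CBLB lost its call without untreated replicate 3, 4-deoxy replicate 1 or 4-deoxy replicate 3 (-0.43 to -0.38, adjusted p of 0.0554 to 0.0699). USP8 lost its call without untreated replicate 2 or 3 or 4-deoxy replicate 1 or 3 (0.31 to 0.53, adjusted p of 0.0611 to 0.192), with array SD as covariate (0.22, adjusted p = 0.375), with array weights (0.33, adjusted p = 0.0924) and on only the 6 arrays compared (adjusted p = 0.0899). With Ac-GlcNAc 0 of 15 were called, beside 0.442% of all probe sets. USP8 was at 0.50 (adjusted p = 0.0895) and HSP90AA1, a chaperone of ERBB2, at 0.27 (adjusted p = 0.112). USP8 was called without untreated replicate 1 (0.63, adjusted p = 0.037) and, like HSP90AA1, with array weights (0.41 and 0.31, adjusted p = 0.0344 and 0.0276), while array SD as covariate gave 0.12 for USP8 and cyclic loess 0.16 for HSP90AA1. Between the compounds 0 of 15 were called, beside 2.38% of all probe sets. CBLB was at -0.36 (adjusted p = 0.0869, or 0.044 and called among probe sets above the median level) and CBL at 0.31 (adjusted p = 0.221). ERRFI1, a feedback inhibitor that binds the ERBB kinases, differed from untreated by 0.21 with Ac-GlcNAc (adjusted p = 0.213) and 0.00 with Ac-4-deoxy-GlcNAc (adjusted p = 0.98).

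Of 36 adaptors and kinases downstream, 20 were measured. PTPN11, the phosphatase SHP2 that links receptors to RAS, was called, at 0.51 higher with Ac-4-deoxy-GlcNAc than in untreated cells (SE 0.13, adjusted p = 0.0302). The call was lost without untreated replicate 2 or 3 or 4-deoxy replicate 1 or 3 (0.40 to 0.49, adjusted p of 0.0646 to 0.142), with array SD as covariate (0.33, adjusted p = 0.244), with array weights (0.39, adjusted p = 0.0581) and on only the 6 arrays compared (adjusted p = 0.0683). The others were not called, so that 5% were, beside 11.0% of all probe sets, and the median difference was 0.09. With Ac-GlcNAc 0 of 20 were called (median 0.11), beside 0.442% of all probe sets. SOS2, a RAS exchange factor, was at 0.36 (adjusted p = 0.103) and PTK6, a tyrosine kinase, at -0.28 (adjusted p = 0.128). SOS2 was called without untreated replicate 1 (0.46, adjusted p = 0.0449) and with array weights (0.32, adjusted p = 0.034), and was 0.096 with array SD as covariate. Between the compounds 0 of 20 were called (median -0.03), beside 2.38% of all probe sets. NCK1 was at -0.29 (adjusted p = 0.209) and PIK3R1 at -0.22 (adjusted p = 0.382).

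Of 27 genes of the ERK response and its feedback, 25 were measured, and 0 rose and 2 fell from untreated with Ac-4-deoxy-GlcNAc, a share of 8% beside 11.0% of all probe sets, with a median difference of -0.08. JUNB, an immediate early transcription factor, fell by 0.60 (SE 0.12, adjusted p = 0.00863), from 10.09, 9.83 and 9.84 to 9.17, 9.41 and 9.37, and stayed called in all 6 fits with 1 array left out. SPRY1, a Sprouty inhibitor of the pathway, fell by 0.39 (adjusted p = 0.0431), and kept its call only without untreated replicate 1 (elsewhere -0.47 to -0.26, adjusted p of 0.0539 to 0.134). Array SD as covariate gave -0.47 for SPRY1 (adjusted p = 0.074), and the fit of only the 6 arrays compared an adjusted p = 0.0961. Against Ac-GlcNAc, JUNB was lower by 0.54 on the log2 scale (difference -0.54, adjusted p = 0.0314) and DUSP5, an ERK phosphatase, by 0.45 (difference -0.45, adjusted p = 0.0389), 2 of 25, or 8% beside 2.38% of all probe sets, with a median of -0.20. JUNB kept that call only without Ac-GlcNAc replicate 3 or 4-deoxy replicate 2 (elsewhere -0.57 to -0.44, adjusted p of 0.0766 to 0.157), and DUSP5 only without 4-deoxy replicate 2 (elsewhere -0.52 to -0.37, adjusted p of 0.0628 to 0.2). With array SD as covariate both were lost (-0.51 and -0.44, adjusted p = 0.0513 and 0.0504). With Ac-GlcNAc against untreated 0 of 25 were called (median 0.03), beside 0.442% of all probe sets. DUSP5 and SPRED1 had differences of 0.39 and 0.23 (adjusted p = 0.0887 and 0.137). DUSP5 was called without untreated replicate 1 (0.43, adjusted p = 0.0466) and with array weights (0.46, adjusted p = 0.0128).

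ERBB3 was also placed in a list of 6 receptor and signalling genes known to respond to PI3K and FOXO transcription factors, of which 5 were measured. From untreated to Ac-4-deoxy-GlcNAc 3 of 5 rose and 0 fell, beside 11.0% of all probe sets called, with a median difference of 0.35. ERBB3 is one of the 3 and counts in both this share and this median, so neither stands apart from its own result. The list was also chosen with earlier results of these data known. Beyond ERBB3, it adds INSR and IRS2. INSR, the insulin receptor, rose by 0.57 (SE 0.10, adjusted p = 0.00452), from 6.28, 6.26 and 6.32 to 6.84, 6.72 and 7.0, and its call held when any 1 array was dropped. IRS2, an adaptor of the insulin receptor, rose by 0.35 (SE 0.10, adjusted p = 0.0364) but lost its call without any 1 of the 6 arrays (0.31 to 0.38, adjusted p of 0.0507 to 0.143), with array SD as covariate (0.33, adjusted p = 0.13) and on only the 6 arrays compared (adjusted p = 0.0695). FOXO1 differed by 0.19 (adjusted p = 0.279) and IGF1R by 0.24 (adjusted p = 0.107). With Ac-GlcNAc 0 of 5 were called (median 0.16), beside 0.442% of all probe sets. FOXO1 was at 0.35 (adjusted p = 0.113) and IRS2 at 0.18 (adjusted p = 0.235). FOXO1 was called without untreated replicate 1 (0.46, adjusted p = 0.0422) and with array weights (0.43, adjusted p = 0.0238). Between the compounds ERBB3 alone was called, 1 of 5 beside 2.38% of all, and INSR had 0.40 (adjusted p = 0.0502).

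**Figure D4:**
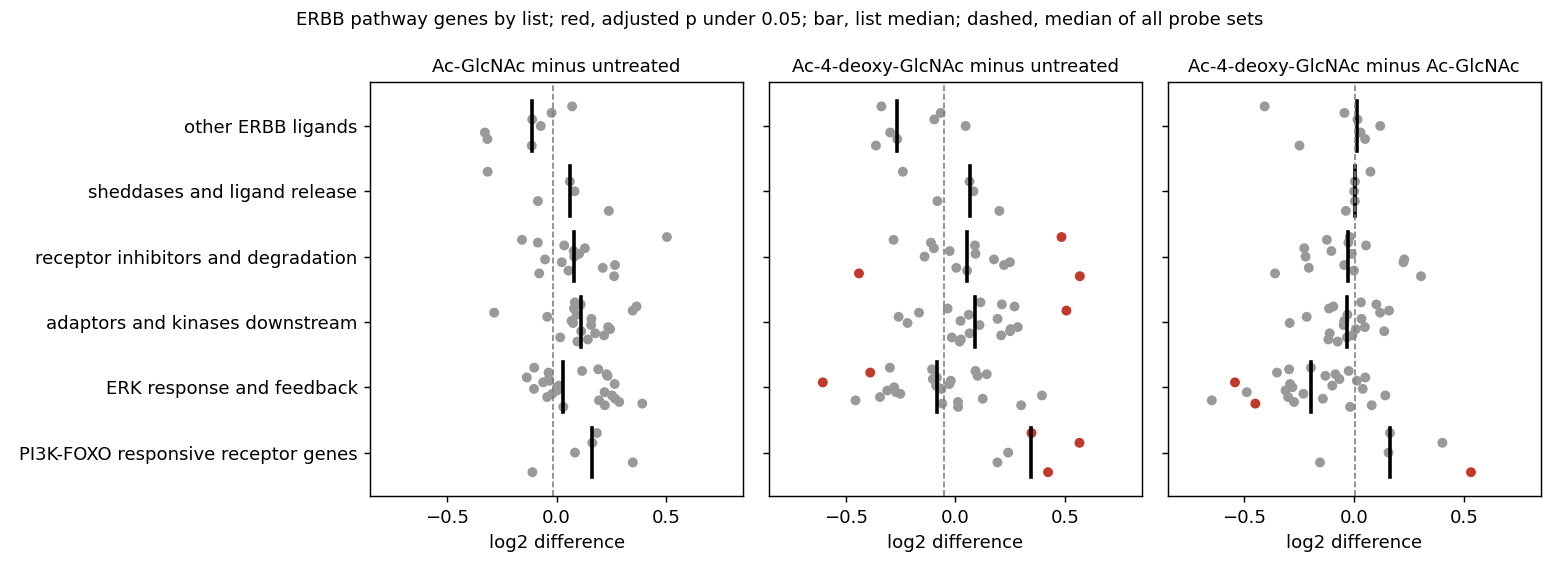
Log2 differences of single genes (points) in 6 lists of the ERBB pathway for the 3 comparisons; red points are called, black bars are list medians and the dashed line is the median of all probe sets. In the middle panel, Ac-4-deoxy-GlcNAc minus untreated, the medians run from -0.26 for other ligands to 0.35 for the PI3K and FOXO list, which includes ERBB3.

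The pattern of ERBB3 over the 9 arrays was compared with that of 14214 other genes by the root mean square difference of log2 values, each gene centred on its own mean. The nearest were RASGEF1A at 0.05, ADAMTS14 at 0.06 and KCNQ3 at 0.07, where ERBB3 itself varied by 0.24 about its mean. EGFR varied by only 0.07 about its mean and was nearest to THRB, PTPN18 and CPQ at 0.03 each. ERBB2 varied by 0.05 and was nearest to SEPTIN9, ZSCAN18 and NFE2L1 at 0.03 each. For EGFR and ERBB2 these distances mostly say that the genes were level over the arrays.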

How the data were processed

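The authors deposited 1 log2 value per probe set and array. The submitters' processing notes name RMA, Partek and hg18. Versions and settings are not given in the sources used here. Groups and replicate numbers came from the titles, and each array held RNA of a separate flask, per the labels' protocols. A gene was measured where a probe set was annotated to it alone (14413 of 17859 probe sets; 2405 name several genes and 1041 none). The probe set with the highest mean was used, and symbols were updated by gene identifier (14385 matched a RefSeq table of GRCh38.p14).

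All 9 arrays entered 1 fit in limma 3.58.1 (R 4.3.3; lmFit, eBayes) with no term but group, leaving 6 residual degrees of freedom. Adjustment ran over all probe sets. Precision is limited by there being 9 arrays, and the median SE of a difference was 0.110. The fit was tested on simulated data. From each list the called genes were named, up to 4 by size, or the 2 with the smallest p. The members and lists were chosen with earlier results of these data known. Other settings were the replicate block, cyclic loess, median centring, probe sets above the median level, trend and robust options, array weights, the 6 arrays compared and leaving out each array. Quantile normalization and array SD as a covariate were added after seeing the data. Array SD differed between untreated and Ac-GlcNAc arrays, so a call lost with that covariate cannot be fully told apart from group. The replicate numbers are not said to mark a shared batch, and same-numbered deviations correlated at -0.24 to 0.37, so they were not taken as pairs. The correlations were 0.05 to 0.37 between Ac-GlcNAc and untreated, -0.24 to 0.14 between Ac-4-deoxy-GlcNAc and untreated, and -0.11 to -0.06 between the compounds.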

Additional observations from a re-analysis of the deposited data

How the results depend on the processing

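The calls of ERBB3 and EREG against untreated and of ERBB3 between the compounds kept their direction in every fit that held them. Both lie below the median level, so the filter on that level left 0 members called in each comparison and by the F test by construction. Array SD as a covariate left 0 called against untreated with Ac-4-deoxy-GlcNAc and 1 by the F test, as did cyclic loess and array weights for the F test (1 each); the cause was not tested. Leaving out 1 array gave 0 to 2 called members with Ac-4-deoxy-GlcNAc against untreated, 0 to 1 between the compounds and 1 to 2 by the F test. With the replicate number as a block, 0, 2 and 1 members were called, as without it, and over all probe sets 324 in place of 79 with Ac-GlcNAc. The block lost the calls of PPP1R1B and FBXL20 against untreated (adjusted p = 0.0583 and 0.0622) and of DUSP5 between the compounds (0.0547) among the genes named from lists. An array correlated best with its own number in 5 of 18 cases, each a choice among the 3 arrays of another group.

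Over all probe sets, the 79 called with Ac-GlcNAc became 47 with cyclic loess, 32 with median centring, 154 above the median level, 141 with trend and robust options, 1760 with array weights, 48 on 6 arrays, 36 with quantile normalization, 2 with the SD covariate and 4 to 1359 with 1 array left out. The 1968 with Ac-4-deoxy-GlcNAc became 818 on 6 arrays, 596 with the SD covariate and 604 to 3076 with 1 left out. The 425 between the compounds became 1187 with array weights and 141 to 493 with 1 left out. The 1493 by the F test became 2905 with array weights, 759 with the SD covariate and 490 to 2533 with 1 left out.

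Of 1061 recomputed differences 40 crossed 0, and 0 of these were called in either fit. With Ac-GlcNAc against untreated, cyclic loess and quantile normalization gave -0.11 and -0.11 for EGFR, -0.038 and -0.0100 for ERBB2, 0.051 and 0.10 for ERBB3, -0.049 and -0.055 for STARD3, and -0.073 and -0.064 for PGAP3. EGFR was -0.020 with median centring, -0.072 with array weights and -0.023 with the SD covariate, which gave -0.018 for PGAP3. With Ac-4-deoxy-GlcNAc against untreated, ERBB2 was -0.056 with cyclic loess, -0.0026 with array weights, -0.035 with quantile normalization and -0.019 with the SD covariate, and ERBB4 was -0.033, -0.11, -0.035 and -0.065. ADAM12 between the compounds was 0.010, 0.014 and 0.017 with cyclic loess, quantile normalization and the SD covariate. With 1 array left out, differences with Ac-GlcNAc ran from -0.031 to 0.060 for EGFR, -0.15 to 0.064 for ERBB4 and -0.24 to 0.032 for HBEGF. With Ac-4-deoxy-GlcNAc they ran from -0.020 to 0.032 for ERBB2 and -0.076 to 0.13 for ERBB4, and between the compounds from -0.0028 to 0.15 for ERBB4 and -0.18 to 0.041 for EREG. No member had a second probe set, so the choice among probe sets changed no level.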

Other observations

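Among the 6 epithelial markers, CDH1 (E-cadherin) rose with Ac-4-deoxy-GlcNAc by 0.45 on the log2 scale against untreated (SE 0.10, limma adjusted p = 0.0139), from 7.58, 7.43 and 7.47 to 7.99, 7.83 and 8.03. It was 0.55 higher than with Ac-GlcNAc (adjusted p = 0.0112), where the arrays read 7.34, 7.53 and 7.32. The keratins KRT19 and KRT7 fell against untreated by 0.49 and 0.46 (adjusted p = 0.0122 and 0.0287). Against untreated, the call of CDH1 was lost when replicate 3 of Ac-4-deoxy-GlcNAc was dropped (0.41, adjusted p = 0.0681) and that of KRT19 when replicate 1 of it was dropped (-0.43, adjusted p = 0.0503). KRT7 lost its call without untreated replicate 1 or Ac-4-deoxy-GlcNAc replicate 1 or 3 (-0.49 to -0.37, adjusted p of 0.0589 to 0.091). Between the compounds CDH1 lost its call without replicate 1 or 3 of either group (0.51 to 0.53, adjusted p of 0.0532 to 0.0651). With array SD as covariate none of the 3 was called against untreated (CDH1 0.41, KRT7 -0.52, KRT19 -0.49; adjusted p = 0.0718, 0.0748 and 0.053), nor was KRT7 on only the 6 arrays compared (adjusted p = 0.0556). KRT8, KRT18 and EPCAM were not called (-0.09, 0.05 and -0.29; adjusted p = 0.575, 0.801 and 0.125). Relative to untreated cells, the epithelial markers thus held 1 called rise and 2 called falls with the 4-deoxy compound. This is 50% of the 6, where 11.0% of all probe sets were called. Between the compounds CDH1 was the only one called, 1 of 6, where 2.38% of all probe sets were. With Ac-GlcNAc against untreated 0 of 6 were called, beside 0.442% of all probe sets.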
